A study of Homo sapiens with 21 samples.

Results

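The genes described here encode the proteins of the cytosolic ribosome. They were taken from HNRNPK PAR-CLIP of MDA-MB-231 cells by gene name: every cluster whose gene name was RPL or RPS with a number (an added P, letter or L ending allowed), or RPSA. The rule took 806 clusters of 81 gene names, out of 18322 gene names with a cluster in the 4 libraries. Of the 81 names, 74 stand on a list of 79 human cytosolic ribosomal protein genes, 6 are paralog-like genes (RPS27L, RPL7L1, RPL39L, RPL26L1, RPL36AL and RPL22L1), and 1, RPS6KL1, is named for its likeness to a kinase and is no ribosomal protein. It was kept because the rule takes it. Clusters were found for 62 members in the parental cytoplasm, 66 in the KRT19 KO cytoplasm, 66 in the parental nucleus and 61 in the KRT19 KO nucleus. In all 4 libraries together 43 members had a cluster in each, 16 in 3, 13 in 2 and 9 in 1.

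MDA-MB-231 is an established triple-negative breast cancer cell line, and the KRT19 KO cells are its CRISPR/Cas9 derivative without keratin 19. All cells, parental and knockout alike, were fed 4-thiouridine (4SU) and irradiated before they were split into cytoplasm and nucleus, and HNRNPK was immunoprecipitated with the RNA crosslinked to it. Whether the KRT19 KO line is a single clone is not given in the sources used here. In PAR-CLIP a crosslinked 4SU leaves a T-to-C change in the read, and a cluster is a group of overlapping reads that carries such changes. The question put to these libraries was which RNAs HNRNPK contacts in each fraction with and without keratin 19. Each condition had 1 library, so no difference below has a replicate check, and no p-value was computed. RNA-seq of 17 further samples was not used, so the amount of an RNA and its contact with HNRNPK cannot be told apart.

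Ribosomal protein mRNAs are among the most abundant in growing cells. They have short untranslated regions, start with a pyrimidine tract at the cap (the TOP motif) that couples their translation to growth signals, and many of their introns carry snoRNAs. Their coding sequences have been copied across the genome as processed pseudogenes. HNRNPK binds single-stranded RNA through KH domains that prefer runs of C. Several free ribosomal proteins, RPL5 and RPL11 above all, bind MDM2, the ligase that degrades p53.

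The most-read HNRNPK site of each of 8 members is printed to show what kind of sequence lay under the reads. The sites are 8 of the 10 with the largest mean reads per 1000000 cluster reads of a library (RPM) over the 4 libraries, 1 per gene. Each sequence is given 5′ to 3′ on the transcribed strand as the part shared by the clusters of all libraries that had the site, shortened to its last 30 nt where it was longer. Capitals mark runs of at least 5 pyrimidines.
RPS23, 3'UTR: ttaaaattaaaaaaCTTTTTCTC
RPL9, intron: CCTTTTCCaCTCCCaaCTTCCatactttag
RPS10, intron: CTTTTTTCCaaattccaaattttac
RPL27A, 3'UTR: TTTTTaTTTTCCTCTCaTTCCCactttacg
RPS24, intron: TTTCCCTCCTTTCTCTTTTTCCCTTCCCCg
RPL34, intron: TCTTTCCaaatttaaTCCTCataaactc
RPS27L, 3'UTR: tttaTTTTCaTTCCTTTTCCaa
RPL37, 3'UTR: TCTTCTCCattaaaaatacaaaaaattag

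All 8 sequences held a run of at least 5 pyrimidines, and none held more than 1 G. By the study's methods the RNA was digested with RNase T1, and the part of this step in the low G count was not tested. The most-read sites of other genes are not shown beside these. Pyrimidines made up 48.3% of the RPL37 site and 96.7% of the RPS24 site, with a median of 74.3% over the 8. The word CCC was present in 3 of the 8. Over all member clusters, pyrimidines were 57.0%, 57.5%, 60.8% and 62.7% of bases in parental cytoplasm, KRT19 KO cytoplasm, parental nucleus and KRT19 KO nucleus. Over all genes they were 62.0%, 60.1%, 62.1% and 63.8%, higher in each library. In GRCh37 (hg19) coordinates the RPS23 site lies at chr5:81569699-81569721 on the minus strand, the RPL9 site at chr4:39457941-39457970 (minus), the RPS10 site at chr6:34385997-34386021 (minus) and the RPL27A site at chr11:8711287-8711316 (plus). The RPS24 site lies at chr10:79799920-79799949 (plus), the RPL34 site at chr4:109545703-109545730 (plus), the RPS27L site at chr15:63445716-63445737 (minus) and the RPL37 site at chr5:40827043-40827071 (minus). Among these, 4 are in introns of the GENCODE canonical transcript and 4 in its 3'UTR. The RPS24 sequence ends 13 nt before the 3′ splice site of its intron, counting the last intron base as 1.

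Ribosomal protein genes took a small part of all HNRNPK cluster reads, a little more of the nuclear than of the cytoplasmic reads. Their share was 0.0845% (95% exact binomial interval 0.0821 to 0.0870%) in the parental cytoplasm, 0.0961% (0.0937 to 0.0986%) in the KRT19 KO cytoplasm, 0.110% (0.106 to 0.113%) in the parental nucleus and 0.114% (0.110 to 0.118%) in the KRT19 KO nucleus. These intervals, like those of shares and single ratios below, take account of counting error only. Copies of 1 molecule are not independent reads, so intervals drawn from reads are too narrow. Intervals drawn from clusters below treat the clusters of 1 gene as independent, which they need not be. The order of cytoplasm below nucleus held in both cell lines, and the intervals of the 2 nuclear libraries overlapped. The shares rest on 4691, 5975, 3879 and 3702 member reads, out of 5551612, 6216226, 3537577 and 3252800 cluster reads in the same order. Members made up 0.463% of the genes with a cluster in the parental cytoplasm and between 0.449 and 0.511% in the other 3 libraries. In each case this was a larger part than their share of the reads. How many reads of members the alignment left out was not tested.

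**Figure D1:**
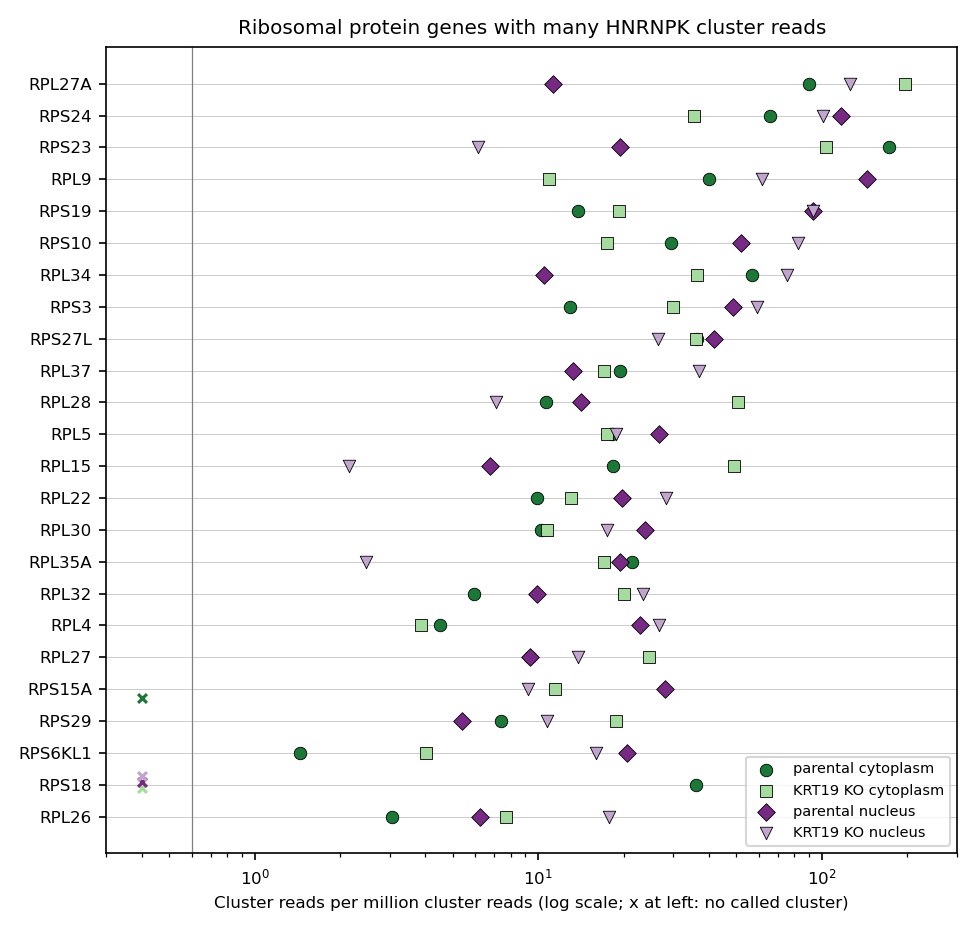
Cluster reads as RPM (log scale) of members with many reads, 1 point per library and crosses at the left for a library with no called cluster. RPL27A spans 11.3 in the parental nucleus to 196.4 in the KRT19 KO cytoplasm, RPS23 lies highest in the cytoplasmic libraries, and RPS18 has reads only in the parental cytoplasm.

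A few genes carried most of these reads. The 10 members with the most reads in a library held 67.3% of the member reads in the parental cytoplasm, 61.7% in the KRT19 KO cytoplasm, 55.0% in the parental nucleus and 61.8% in the KRT19 KO nucleus. A median member had 2 clusters in every library, where a median gene of the series had 4 or 5, and 23 to 30.5 reads, where a median gene had 55 to 78.5. The levels below are RPM, per gene and not per length.

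RPL27A, of the large subunit, had the largest mean, with 90.4 in the parental cytoplasm, 196.4 in the KRT19 KO cytoplasm, 11.3 in the parental nucleus and 126.0 in the KRT19 KO nucleus. The parental nucleus was the low library for this gene. RPS23, a protein of the decoding site of the small subunit, had 173.3, 103.9, 19.5 and 6.15 in the same order, so that both cytoplasmic values stood above both nuclear ones. RPL9 had 40.2, 10.9, 145.0 and 61.5, with the parental level above the knockout level in each fraction.

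RPS19, a small-subunit protein whose mutations cause Diamond-Blackfan anaemia, had 13.9, 19.3, 93.3 and 93.5, with the nuclear values above the cytoplasmic ones. RPS24, another gene of that anaemia and one known for alternative splicing of its last exons, had 65.7, 35.4, 116.7 and 101.1, again with both nuclear values highest. RPS10 had 29.4, 17.5, 52.0 and 82.7. RPL34 was at 56.6, 36.4, 10.5 and 75.3, with the parental nucleus lowest as for RPL27A. These values show no common order of the 4 libraries: the leading member differed, being RPS23 in the parental cytoplasm, RPL9 in the parental nucleus and RPL27A in both knockout libraries.

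RPS3, which sits at the mRNA entry of the small subunit, had 13.0, 29.8, 48.6 and 59.0. RPS27L, a paralog of RPS27 that is induced by p53, had 36.2, 35.9, 41.8 and 26.4.

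RPL5 and RPL11, which form the 5S RNP and hold MDM2 together, differed in level. RPL5 had 101, 109, 94 and 61 reads in the 4 libraries, and RPL11 had 9, 27, 0 and 38. The files list clusters from 5 reads upward, so the 0 says that no cluster was called. The reads of RPL5 were intronic or coding in every library, with no 3'UTR cluster. Its most-read site at a splice site is shown because it ends on the last base of the intron, a choice made after its values were seen.
RPL5, intron, chr1:93299074-93299101 (plus): CCTTTCTacaattaTTTTTTTCTTTCag
This RPL5 site had 21, 56, 0 and 23 reads in the 4 libraries. A chosen list of 8 ribosomal proteins that bind MDM2 held RPL5, RPL11, RPL23, RPL26, RPS3, RPS7, RPS27 and RPS27L. Of these, 6, 7, 6 and 8 had a cluster in the respective library, with 412, 629, 510 and 504 reads.

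By subunit, the 51 names starting with RPL held 2242, 3736, 1876 and 1944 reads, and the 29 ribosomal names starting with RPS held 2441, 2214, 1930 and 1706. Of the ribosome list, clusters were found for 47 of 47 large-subunit and 28 of 32 small-subunit genes. RPS25 and FAU were among those without a cluster in any library. GNB2L1 (RACK1), a scaffold on the small subunit that the name rule misses, had 39, 105, 84 and 58 reads.

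Of the other paralog-like genes, RPL7L1 had 51, 81, 30 and 10 reads and RPL39L had 45, 29, 25 and 21. RPL26L1 had 16, 5, 34 and 13 reads, RPL36AL 20, 11, 23 and 0, and RPL22L1 0, 14, 20 and 11. RPS6KL1 had 8, 25, 73 and 52 reads, most of them nuclear.

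Some members could be compared between libraries only in part. In 5 cases, RPS18, RPS9, RPL36A, RPL7A and RPL10, the 200 kb around the gene held 13 to 36 clusters of any gene in the parental cytoplasm and 0 or 1 in each of the other libraries. For RPS18 these were 28 clusters against 0, 0 and 0, beside 200 RPS18 reads in the parental cytoplasm and none elsewhere. RPS9 had 79 reads in the parental cytoplasm and 7 in the KRT19 KO nucleus. RPL36A had 50, RPL7A 16 and RPL10 6, all in the parental cytoplasm. Around the other 76 members every library held at least 3 clusters. The part of this regional gap in the values of the 5 genes was not tested. Without them the share of the parental cytoplasm was 0.0782%.

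Within the genes, 3'UTRs held a larger share of the clusters of ribosomal proteins than of all genes in the 4 libraries, and coding sequence did so in the cytoplasm but not in the nuclei. In the parental cytoplasm 24.7% (18.9 to 31.4%) of member clusters were annotated as 3'UTR, against 13.0% over all genes, and 11.6% (7.51 to 16.9%) as coding, against 3.42%. In the KRT19 KO cytoplasm the 3'UTR held 31.4% (25.4 to 37.9%) against 20.4%, and coding sequence 15.9% (11.4 to 21.4%) against 6.12%. The nuclear libraries had 15.9% (11.2 to 21.7%) and 12.7% (8.23 to 18.5%) of member clusters in 3'UTRs, in the parental and KRT19 KO cells, against 4.80% and 5.37% over all genes. The interval of the 3'UTR share of members lay above the value of all genes in all 4 libraries. Of member clusters in the nuclei, 0.995% were coding in the parental cells and 0% in the knockout, against 2.05% and 2.02% over all genes.

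Introns held 49.0%, 42.0%, 73.6% and 76.8% of member clusters in the order parental cytoplasm, KRT19 KO cytoplasm, parental nucleus and KRT19 KO nucleus, against 74.4%, 63.4%, 83.7% and 82.1% over all genes. In the KRT19 KO nucleus the value of all genes lay inside the interval of the members, 70.0 to 82.7%. Lengths of introns and exons differ between the sets. Per kb of canonical intron, members had 0.262, 0.240, 0.397 and 0.354 clusters, against 0.103, 0.0737, 0.113 and 0.103 over all protein-coding genes. Per kb of canonical exon they had 0.606, 0.917, 0.294 and 0.210, against 0.360, 0.491, 0.148 and 0.147. The number of clusters per kb was above that of all genes in both regions and every library. Reads per kb of exon, per 1000000 cluster reads, were 3.50 and 5.55 for members in the parental and KRT19 KO cytoplasm, below the 4.51 and 6.98 of all genes, and 1.25 and 1.64 in the nuclei, above 0.914 and 0.940. Per kb of intron they were 1.02, 0.618, 2.55 and 2.32, above 0.358, 0.193, 0.561 and 0.499. The all-gene value counts every protein-coding gene, also those with no cluster, and the part of RNA amount in the difference was not tested. Exon length was not corrected for sequence that also occurs elsewhere in GRCh37. In members this was 66.8% of 30-nt words in coding sequence and 20.4% in 3'UTRs, and its part was not tested either.

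**Figure D2:**
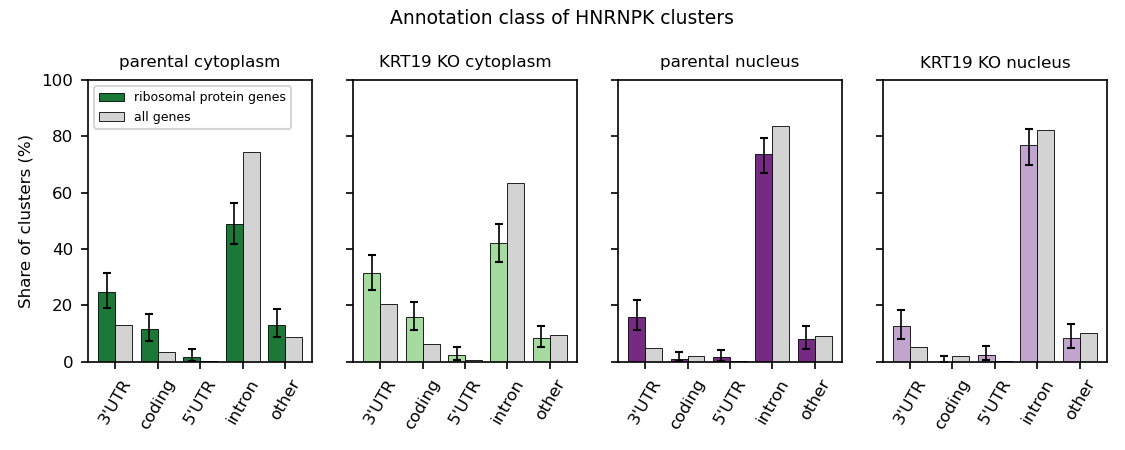
Share of clusters (%) in each annotation class, in 1 panel per library, with coloured bars for ribosomal protein genes (95% exact binomial interval) and grey bars for all genes. In the KRT19 KO cytoplasm 31.4% of member clusters were 3'UTR against 20.4% of all, and in every library the member bar for introns is below the grey one.

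Counted by reads, 42.4% of member reads were 3'UTR reads in the parental cytoplasm and 55.8% in the KRT19 KO cytoplasm, against 37.8% and 53.6% over all genes. The difference between members and all genes was thus smaller by reads than by clusters in the cytoplasm. In the nuclei the 3'UTR reads were 12.2% and 17.4% of member reads, against 6.42% and 6.89%. Coding reads of members numbered 278, 711, 26 and 0, which was 5.93%, 11.9%, 0.670% and 0% of member reads, against 2.71%, 6.65%, 2.82% and 5.55% over all genes. Introns held 44.6%, 26.8%, 75.6% and 77.2% of member reads, against 50.6%, 26.05%, 80.4% and 75.7%, so that by reads members were below all genes in the parental libraries only. In the KRT19 KO cytoplasm the value of all genes lay inside the member interval of 25.6 to 27.9%. In the KRT19 KO nucleus it lay just below the member interval of 75.8 to 78.5%. The ratio of exonic (3'UTR, coding and 5'UTR) to intronic reads of members was 1.09 in the parental cytoplasm, 2.57 in the KRT19 KO cytoplasm, 0.181 in the parental nucleus and 0.235 in the KRT19 KO nucleus, and over all genes 0.811, 2.43, 0.124 and 0.171. Intronic reads of members numbered 2091 and 1599 in the cytoplasmic and 2932 and 2857 in the nuclear libraries. How far nuclear RNA enters the cytoplasmic fraction was not tested.

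The 3'UTR clusters of ribosomal protein genes lay mostly in long 3'UTR forms, past the end of the short mRNA. Distances were measured from the stop codon of the canonical transcript to the cluster midpoint, and the nearest annotated 3′ end is that of the shortest transcript with the same stop codon. Over the 81 members the median distance from stop codon to nearest annotated end was 47 nt, and to the canonical end 233 nt, against 427 and 1120 nt over all 19856 protein-coding genes. The median 3'UTR cluster of members lay 1227 nt past the stop codon in the parental cytoplasm, 1439 nt in the KRT19 KO cytoplasm, 1155 nt in the parental nucleus and 1427 nt in the KRT19 KO nucleus, against 1180, 1170, 1110 and 1089 nt over all genes. The nearest annotated end of members is thus much closer to the stop codon than that of all genes, which goes together with the share of clusters past it.

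Past the nearest annotated end lay 34 of 49 member 3'UTR clusters in the parental cytoplasm (69.4%, 54.6 to 81.7%), 56 of 71 in the KRT19 KO cytoplasm (78.9%, 67.6 to 87.7%), 26 of 32 in the parental nucleus (81.2%, 63.6 to 92.8%) and 15 of 23 in the KRT19 KO nucleus (65.2%, 42.7 to 83.6%). Over all genes the share was 41.7 to 42.5% in the 4 libraries. By reads, 86.2% and 85.9% of cytoplasmic and 68.9% and 74.5% of nuclear 3'UTR reads of members lay past that end. The interval of each member share was above the all-gene share in all 4 libraries, in the KRT19 KO nucleus only by 42.7 against 42.4%. Of the 56 clusters in the KRT19 KO cytoplasm, RPL27A held 13 and RPL28 held 11. By gene, 15 of 23, 19 of 28, 12 of 15 and 11 of 13 members with a 3'UTR cluster had one past that end. Over all genes these were 2625 of 5953, 2799 of 6368, 1626 of 3728 and 1680 of 3860.

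**Figure D3:**
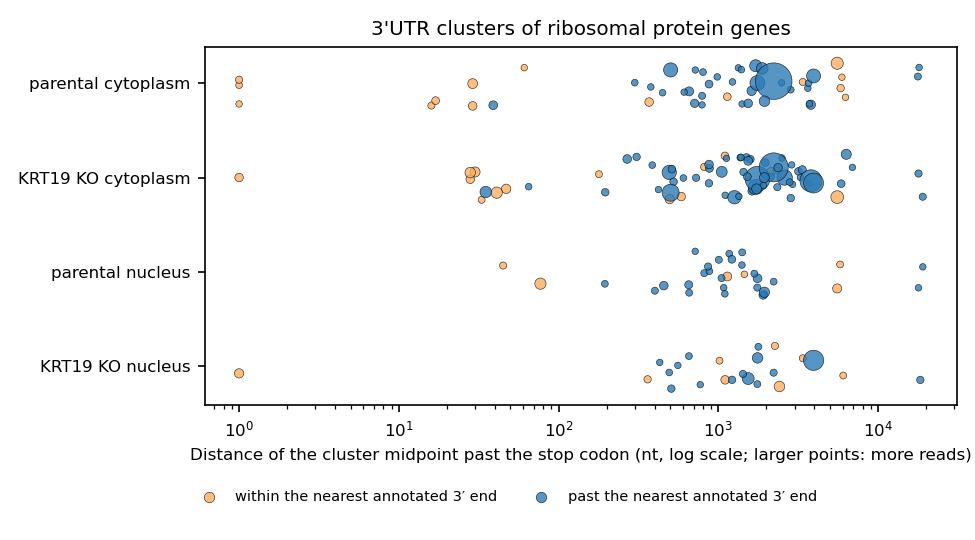
Distance (nt, log scale) of each 3'UTR cluster midpoint of a ribosomal protein gene past the canonical stop codon, by library, with larger points for more reads, blue points past the nearest annotated 3′ end, and clusters that lie before the canonical stop codon set at 1. Most points of each library are blue, 56 of 71 in the KRT19 KO cytoplasm.

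RPL27A shows this most fully. Its nearest annotated end is 44 nt past the stop codon and its canonical end 4069 nt. All 391, 1142, 40 and 296 of its 3'UTR reads lay past the near end. By mean RPM its leading sites stood 3948 nt and 1758 nt past the stop codon, with 106, 239, 0 and 246 reads at the former and 124, 382, 28 and 50 at the latter. A further site 3800 nt past the stop codon had 35 and 294 reads in the cytoplasmic libraries and no called cluster in the nuclei. The site at 3948 nt, whose sequence is printed above, had no called cluster in the parental nucleus and was the main site in the KRT19 KO nucleus.

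In RPS23 a single 3'UTR site 2223 nt past the stop codon held 858 of 962 reads in the parental cytoplasm and 531 of 646 in the KRT19 KO cytoplasm. The same site had 8 of 69 and 11 of 20 reads in the nuclei. The site was thus called in all 4 libraries, with most of its reads in the cytoplasm. RPL28 had 36, 273, 25 and 8 3'UTR reads and RPL15, a large-subunit protein, 80, 290, 15 and 7. All 3'UTR reads of RPL28, and 246 of the 290 of RPL15 in the KRT19 KO cytoplasm, lay past the near ends.

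Beyond the canonical transcript altogether lay 20.2%, 16.4%, 18.4% and 21.5% of member clusters, against 1.72 to 2.16% over all genes. These clusters belonged to 9 genes, led by RPS24 with 40 clusters and 555 reads over the 4 libraries, RPL34 with 14 and 418, and RPS3 with 29 and 347. In the authors' annotation 88 of them were intronic and 46 lay in processed transcripts, of longer forms of these genes.

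Within introns, clusters of members lay near 3′ splice sites in a larger share than those of all genes, with introns that are shorter. Within 50 nt upstream of a canonical 3′ splice site lay 8 of 85 intronic clusters in the parental cytoplasm (9.41%, 4.15 to 17.7%), 13 of 78 in the KRT19 KO cytoplasm (16.7%, 9.18 to 26.8%), 13 of 129 in the parental nucleus (10.1%, 5.48 to 16.6%) and 11 of 115 in the KRT19 KO nucleus (9.57%, 4.87 to 16.5%). Over all genes the share was 0.711 to 1.42%. These 50 nt made up 4.44 to 4.92% of the intron length of the members with intronic clusters, and 0.721 to 0.728% of that of all genes. Relative to length, members had 2.03, 3.76, 2.05 and 1.97 times the even share and all genes 0.982, 1.12, 1.70 and 1.96 times, so that the KRT19 KO nucleus showed nearly the same ratio in both. The even share of members was 4.64%, 4.44%, 4.92% and 4.85%. In the parental cytoplasm it lay inside the member interval, and in the KRT19 KO nucleus it lay just under the lower limit of 4.87%.

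The RPS24 site beside the splice site had 158, 33, 173 and 19 reads in the 4 libraries, with the parental value above the knockout value in each fraction. RPL9 had nearly all its reads at the printed intronic site, 194 of 223, 62 of 68, 497 of 513 and 181 of 200, at 1377 nt from the canonical 3′ splice site. The RPS10 site had 146, 102, 149 and 173 reads. Overlap with a snoRNA gene was seen for 1, 0, 1 and 1 of the 97, 95, 148 and 139 intronic clusters. Of these intronic clusters, 26, 37, 52 and 38 lay in the 28 members that host a snoRNA in the annotation. The part of host intron length that snoRNAs take is not given, so these counts have no even share beside them.

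**Figure D4:**
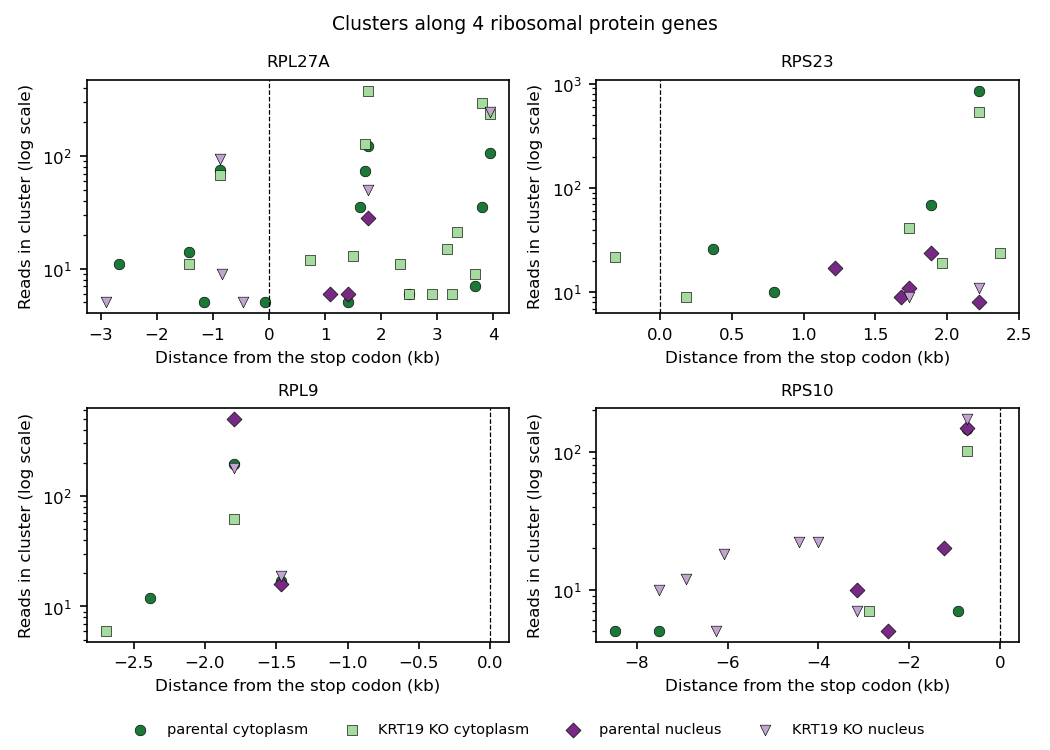
Reads in each cluster site (log scale) of RPL27A, RPS23, RPL9 and RPS10 against its distance in kb from the canonical stop codon (dashed line), in 4 libraries. RPL27A and RPS23 have their tallest sites past the stop codon, RPL9 and RPS10 in introns before it, and the tallest RPS10 site, with 146, 102, 149 and 173 reads, appears in all 4 libraries.

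5'UTR clusters were few but took a larger share of clusters than over all genes, with 1.52%, 2.21%, 1.49% and 2.21% of member clusters against 0.337%, 0.561%, 0.374% and 0.380%. In both parental libraries the value of all genes lay inside the member interval, and by reads the shares were 0.490%, 1.10%, 0.877% and 0.756% against 0.513%, 2.99%, 0.713% and 0.488%, lower for members in the cytoplasm. In all 4 libraries there were 15, in 13 members, with 151 reads in total and 5 to 30 reads each. The most reads were on RPS26 (30), RPS27A (20 in 3 clusters), RPL17, RPL28 and RPS15A (13 each), RPLP1 (11), RPS6 (10), RPL35 (8), and RPL12 and RPLP2 (7 each). Of the 15, 5 started within 20 nt of the annotated transcript start on either side, and 6 held CCC. These 5 ran from RPLP2, 15 nt before the start, to RPL12, 16 nt past it. Whether they overlap the TOP motif was not tested. By library there were 3, 5, 3 and 4 such clusters, too few to compare between libraries.

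Over all annotation classes together, the share of clusters with the HNRNPK-type word CCC did not separate members from all genes at this number of clusters. CCC was present in 40.9% (34.0 to 48.1%), 45.6% (39.0 to 52.3%), 46.3% (39.2 to 53.4%) and 43.6% (36.3 to 51.2%) of member clusters in the 4 libraries, against 39.8%, 40.6%, 45.5% and 44.7% over all genes, each inside the member interval. Among intronic clusters alone CCC was present in 48.5%, 53.7%, 52.0% and 46.0% of those of members, against 40.6%, 41.3%, 45.2% and 44.2%, and in the KRT19 KO cytoplasm the value of all genes lay below the member interval of 43.2 to 64.0%. The longer word TCCCC was present in 9.60%, 9.29%, 10.4% and 7.73% of member clusters, against 10.5%, 10.4%, 12.4% and 12.4%, and TTCCC in 10.6%, 11.1%, 13.4% and 13.8%, against 13.6%, 12.9%, 14.7% and 15.0%. TTCCC and CCC overlap, as do TCCCC and CCC, and the words were searched on the transcribed strand. None of the 23 and 36 coding clusters of members in the cytoplasmic libraries held TTCCC, which allows shares of up to 14.8% and 9.74% (exact binomial), while 7.62% and 8.69% of all coding clusters held TTCCC. G made up 13.8%, 14.7%, 13.1% and 9.29% of the bases of member clusters, above the 7.02%, 7.48%, 8.51% and 6.41% over all genes.

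Coding sequence of these genes is hard to place by alignment. Of all 30-nt words in the coding sequences of the 81 members, 66.8% occur at another place in GRCh37, against 5.52% for 71 mitochondrial ribosomal protein genes. In 3'UTRs the shares were 20.4% and 11.5%. Yet of 806 member clusters, whose sequences all equal GRCh37 at their positions, only 2, with 13 reads, had a second exact copy in the genome. How many coding reads the alignment left out was not tested. The 8 sites printed first each had 1 copy.

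Between the knockout and parental cytoplasm, several large-subunit genes had a higher RPM in the knockout. Of the 81 members, 53 had a cluster in both libraries, and 31 of these had at least 50 reads in both together and were compared. Of the rest, 13 had a cluster only in the knockout and 9 only in the parental library. These 9 take in RPS18, RPS9, RPL36A, RPL7A and RPL10, whose surroundings held 0 or 1 clusters of any gene in the knockout cytoplasm. The share of all genes with a cluster in only 1 of these libraries is not given, so these counts have no background beside them. The median log2 ratio of the 31 was 0.50 (95% interval of the median over genes -0.19 to 1.33), against -0.05 over 8926 genes. Over the 15 members with at least 200 reads the median was -0.05. At least 2-fold higher in the knockout were 13 members (41.9%), where 20.0% of all genes were, and 1 was at least 2-fold lower (3.23%), where 20.1% of all genes were.

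The 60S names had a median log2 ratio of 1.05 over 20 genes, 10 of them at least 2-fold higher, and the 40S names -0.01 over 11, of which 3 were at least 2-fold higher and 0 at least 2-fold lower. The largest ratio was that of RPL28, with 59 reads in the parental and 314 in the knockout library, a log2 ratio of 2.25 (counting interval 1.84 to 2.68). RPL8 followed with 13 and 53 reads (1.86, 0.97 to 2.86) and RPL32 with 33 and 125 (1.76, 1.19 to 2.36). The lowest was RPL9 with 223 and 68 reads (-1.88, -2.29 to -1.48), and then RPS24 with 365 and 220 (-0.89, -1.14 to -0.65) and RPL39L with 45 and 29 (-0.80, -1.52 to -0.09). With unique reads counted in place of all reads, 20 members could be compared and 7 of them were at least 2-fold higher. The share of all genes with unique reads is not given, so this count has no background beside it.

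Between the knockout and parental nucleus, the members spread to both sides. The median log2 ratio of 33 members was 0.22 (-0.66 to 0.67), against -0.10 over 9158 genes. At least 2-fold higher were 8 (24.2%, against 13.7% of all genes) and at least 2-fold lower 7 (21.2%, against 17.3%). RPL27A had 40 reads in the parental and 410 in the knockout nucleus, a log2 ratio of 3.48 (3.01 to 3.99), RPL34 had 37 and 245 (2.85, 2.35 to 3.39) and RPS27A, a ubiquitin fusion, had 10 and 46 (2.32, 1.32 to 3.47). RPL35A, another Diamond-Blackfan anaemia gene, had 69 and 8 (-2.99, -4.26 to -1.93), RPS21 had 49 and 10 (-2.17, -3.32 to -1.17), and RPS23 had 69 and 20 (-1.67, -2.46 to -0.93).

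**Figure D5:**
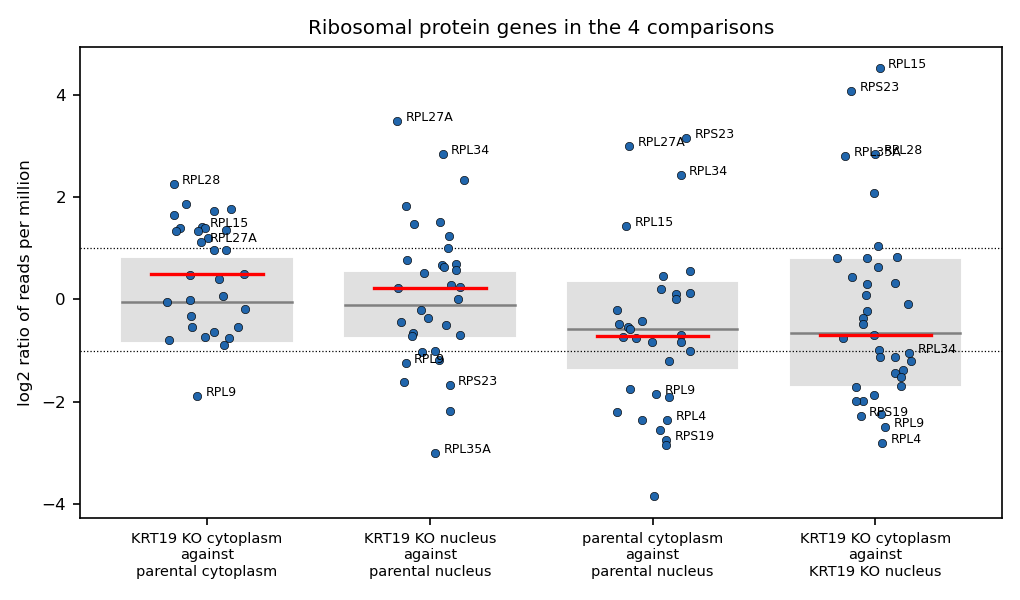
log2 ratio of the RPM of each compared member (blue points) in the 4 comparisons, with the member median (red), the median and interquartile range of all genes (grey line and box), and dotted lines at 2-fold. In the first comparison 13 of 31 points lie at or above the upper dotted line and 1 below the lower one.

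Between cytoplasm and nucleus in the parental cells, the median of members lay near that of all genes. The median log2 ratio of 32 members, cytoplasm over nucleus, was -0.72 (-1.74 to 0.01), against -0.58 over 9056 genes. At least 2-fold higher in the cytoplasm were 4 (12.5%, against 15.5%) and at least 2-fold lower 11 (34.4%, against 35.4%). RPS23 led with 962 and 69 reads (3.15, 2.80 to 3.53), before RPL27A with 502 and 40 (3.0, 2.53 to 3.50) and RPL34 with 314 and 37 (2.44, 1.94 to 2.97). The lowest were RPS6KL1 with 8 and 73 reads (-3.84, -5.10 to -2.79), RPL3, a protein near the peptidyl transferase centre, with 20 and 91 (-2.84, -3.61 to -2.13) and RPS19 with 77 and 330 (-2.75, -3.13 to -2.39).

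In the knockout cells the median of 37 members was -0.70 (-1.21 to 0.31), against -0.66 over 9020 genes. At least 2-fold higher in the cytoplasm were 6 (16.2%, against 22.3%) and at least 2-fold lower 16 (43.2%, against 41.7%). Centred on the median of all genes, these counts were 11 and 9, and in the parental cells 6 and 10, so the excess of lower over higher members in KRT19 KO cells rests on the scaling by total cluster reads. RPL15 had 305 reads in the cytoplasm and 7 in the nucleus (4.51, 3.45 to 5.84), RPS23 had 646 and 20 (4.08, 3.44 to 4.80) and RPL28 had 314 and 23 (2.84, 2.23 to 3.52). RPL4 had 24 and 87 (-2.79, -3.51 to -2.13), RPL9 68 and 200 (-2.49, -2.91 to -2.09) and RPS19 120 and 304 (-2.28, -2.59 to -1.97). The comparisons within and between fractions share libraries and are not independent of each other. RPS23 was high in the cytoplasm and RPS19 in the nucleus in both cell lines.

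The sites themselves were mostly seen once. The 806 clusters merged into 611 sites, of which 472 (77.3%) were called in 1 library, 96 in 2, 30 in 3 and 13 in all 4, against 75.4% in 1 library over all genes. The 13 sites in all 4 libraries lay in 9 genes, 11 of them in introns and 2 in 3'UTRs. They were 2.13% of member sites and held 25.4% of the member reads, against 1.89% and 20.2% over all genes.

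Other genes of translation give a scale for these values. The 16 non-ribosomal TOP mRNAs, which share the 5′ motif, held 0.141%, 0.164%, 0.187% and 0.200% of the cluster reads, above the shares of the 81 members, and had a median log2 ratio of 0.32 between the knockout and parental cytoplasm over 14 genes. The 71 mitochondrial ribosomal protein genes held 0.447%, 0.461%, 0.189% and 0.195%, so that their cytoplasmic shares exceeded their nuclear ones, and their median ratio was 0.13 over 40 genes. The 24 ribosome biogenesis genes held 0.0961%, 0.0938%, 0.0975% and 0.0875%, with a median of -0.09 over 19 genes. These lists were compared by counts and medians only.

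Several facts of the libraries bear on all values. Member clusters with a single unique read made up 20.7%, 8.41%, 34.3% and 30.9%, against 26.4%, 14.0%, 37.8% and 38.6% of all clusters. T-to-C reads made up 65.8%, 59.7%, 73.5% and 70.0% of member reads, against 66.4%, 59.6%, 72.9% and 76.7% of all. KRT19 itself had 1 cluster of 7 reads in the parental and 1 of 5 reads in the KRT19 KO cytoplasm and none in the nuclei, too few to check the genotype.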

How the data were processed

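HNRNPK PAR-CLIP clusters of 4 libraries were used, parental and KRT19 KO cytoplasm and nucleus, 1 each. By the study's methods the authors demultiplexed reads with Bcl2fastq and cutadapt, collapsed duplicates with the help of molecular identifiers, used hg19, and called and annotated clusters with PARalyzer in PARpipe. The authors deposited, per cluster, raw counts of reads and conversions without normalization. The fraction, score and log10 columns deposited with them were not used. Members and lists (60S, 40S, MDM2-binding, outside the name rule, other TOP mRNAs, mitochondrial ribosomal, ribosome biogenesis) were chosen with earlier results of these data known.

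Gene reads were divided by the cluster reads of the library. A ratio needed a cluster in both libraries and at least 50 reads in the 2 together, and 2-fold was the limit for a call. Shares have 95% exact binomial (Clopper-Pearson) intervals, medians an order-statistic interval over genes, and single ratios an exact interval given their summed reads. Named genes were the 10 members with the highest mean reads per 1000000 cluster reads, the 3 highest and 3 lowest ratios per comparison, the 10 with most 5'UTR reads, RPL5, RPL11, the paralog-like members and those with no cluster. Cluster midpoints were placed on GENCODE v44lift37 canonical transcripts, which covered 81 of 81 members. Genome copies were searched for clusters of at least 20 nt, 794 of 806. Ratios and intervals were tested on simulated data. Python 3.11.15, numpy 2.4.6, pandas 2.3.3, scipy 1.17.1 and matplotlib 3.10.9 were used. Alternatives were clusters of at least 10 reads or 2 conversion locations, unique reads, other read minimums, centring, single annotation classes and leaving out members. Leaving out RPS6KL1 or the 5 regional genes, and the canonical annotation, were chosen after seeing the data. A few genes and sites that the naming rule takes are not reported here.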

Additional observations from a re-analysis of the deposited data

Results flagged for a closer look

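RPL34 moved at least 2-fold in opposite directions between fractions in the 2 cell lines, the only one of the members compared in both that did so. Its log2 ratio of cytoplasm to nucleus was 2.44 in parental cells, from 314 and 37 reads, and -1.05 in KRT19 KO cells, from 36.4 and 75.3 reads per 1000000 cluster reads. Centred on the median of all genes, the values were 3.02 and -0.39, so that the fall in KRT19 KO cells was then under 2-fold. The difference was not tested, since each condition had 1 library. The reads at its main intronic site were 157, 80, 0 and 106 in the parental cytoplasm, KRT19 KO cytoplasm, parental nucleus and KRT19 KO nucleus, so the parental nucleus is the library that stands apart.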

How the results depend on the processing

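The values rest on 1 library per condition and on few reads per gene, so the intervals understate the error. Between libraries, 28 of 33 recomputed medians stayed within the interval of the main value, as did 21 of 24 recomputed 3'UTR shares and 10 of 36 recomputed read shares. The 5 regional genes were in none of the comparisons, so leaving them out could not move a median. RPS6KL1 was not compared between the cytoplasms, so leaving it out could not move that median. The intervals of the medians are wide: at 200 reads the cytoplasm median went from 0.50 to -0.05 and counted as within. Coding clusters gave no median for the other comparisons, nor 5'UTR clusters for any. Values for 1 annotation class divide by the reads of that class in the library, so every gene of the class shifts alike with the share of that class, which was 37.8%, 53.6%, 6.42% and 6.89% of the reads of all genes for 3'UTRs and 2.71%, 6.65%, 2.82% and 5.55% for coding sequence. Higher read minimums and unique reads compare fewer members. In the other cases the cause was not tested.

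With at least 2 conversion locations the read share was 0.0806% in the parental cytoplasm, 0.0929% in the KRT19 KO cytoplasm, 0.128% in the parental nucleus and 0.152% in the KRT19 KO nucleus. With unique reads it was 0.0888%, 0.102%, 0.116% and 0.127% in that order. Without the member with the most reads it was 0.0672%, 0.0765%, 0.0951% and 0.101%. Among 3'UTR clusters only it was 0.113%, 0.113%, 0.250% and 0.364%, among coding clusters only 0.220%, 0.195%, 0.0313% and 0, and among 5'UTR clusters only 0.0964%, 0.0401%, 0.162% and 0.224%. With at least 10 reads per cluster it was 0.120% in the KRT19 KO nucleus, and without the 5 regional genes 0.0782% in the parental cytoplasm.

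The median log2 ratio between the cytoplasms was -0.42 over 5 members in coding clusters only. With 2 conversion locations the median was 0.76 between the nuclei and -1.51 between the KRT19 KO fractions. In 3'UTR clusters only, cytoplasm over nucleus, it was -2.35 in parental cells and -2.11 in KRT19 KO cells. The 3'UTR share of member clusters was 34.1% in the parental cytoplasm with 2 conversion locations, and 42.4% and 55.8% by reads in the parental cytoplasm and that of KRT19 KO cells. Between the cytoplasms RPL28 turned to -0.70 in coding clusters only, with 23 parental and 41 KRT19 KO reads. RPS3 turned to -1.20 in 3'UTR clusters only. RPL8 moved to 0.49 in coding clusters only, with the same 13 and 53 reads as in the main ratio. In 3'UTR clusters only RPL32 moved to 0.17, RPL28 stood at 2.18 and RPS19 rose to 2.91.

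Members at least 2-fold higher in the knockout cytoplasm numbered 13 of 31 in the main count, 5 of 15 among genes of at least 200 reads, 23 of 53 with no minimum, 7 of 20 with unique reads, 4 of 12 in 3'UTR and 0 of 5 in coding clusters. Those lower numbered 1 in the main count, 5 with no minimum and 2 with unique reads, 2 conversion locations or 3'UTR clusters. Between the nuclei, 8 higher and 7 lower of 33 became 2 and 1 of 9 at 200 reads, 2 and 1 of 8 with unique reads, 4 and 2 of 15 with 2 conversion locations and 3 and 3 of 6 in 3'UTRs, and 13 of 53 were lower with no minimum. In parental cells 11 of 32 lower in the cytoplasm became 3 of 9 at 200 reads, 3 of 11 with unique reads, 21 of 51 with no minimum and 5 of 8 in 3'UTRs, and 4 higher became 2 of 18 with 2 conversion locations and 0 in 3'UTRs. In KRT19 KO cells 6 higher and 16 lower of 37 became 11 and 9 when centred on all genes, 3 and 6 of 14 at 200 reads and 2 and 5 of 9 in 3'UTRs, with 7 of 18 lower by unique reads and 3 of 21 higher with 2 conversion locations. The share of all genes is given above for the main counts only, so the recounts have no background beside them. No paired analysis was possible because each condition had 1 library.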

Other observations

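Gene names of ribosomal protein pseudogenes, which the name rule leaves out, had clusters too: 55 clusters of 14 names in the parental cytoplasm with 875 reads, 64 of 22 names in the KRT19 KO cytoplasm with 1467, 51 of 12 names in the parental nucleus with 830 and 37 of 8 names in the KRT19 KO nucleus with 487. Over 16, 24, 11 and 9 members in the 4 libraries both exonic and intronic clusters were called, while 27, 18, 44 and 43 had intronic clusters without an exonic one.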
